A study of Homo sapiens with 10 samples.

Results

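The regions described here are FLAG-PUS7 peaks that lie outside annotated genes. A listed peak was counted when it lay on chromosomes 1 to 22 or X, overlapped no RefSeq gene of any biotype on GRCh38 and was more than 200 bases from any RefSeq tRNA gene. Of 2048 listed peaks, 142 met this rule, and they merged on the same strand into 110 loci. The rule used position alone, so that signal, strand and recurrence were free to vary. Coordinates are 1-based on hg38.

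The peaks come from iCLIP, in which UV light links a protein to the RNA it touches in living cells and the linked RNA is pulled down and sequenced. HEK 293T is a transformed human embryonic kidney line, here at passages 20 to 25, and H9 is a human embryonic stem cell line, here at passages 40 to 45. Both groups were PUS7KO cells to which FlagPUS7, the tagged enzyme, had been added back, with 3 libraries in 293T and 2 in H9. UV light of 254 nm was used at 200 mJ/cm2, and magnetic beads carrying an antibody to the tag then collected the linked RNA over 2 h at 4 °C. All the libraries compared therefore lack the cells' own PUS7, and the sources used here do not say how the tagged enzyme was expressed or whether each line was 1 clone. Each library has its own peak list, called here 293T list 1, 2 and 3 and H9 list 1 and 2 by the replicate numbers of the labels. Knockout cells without the tag were the mock controls, and no peak list of theirs was analysed here. The labels do not say that replicates were grown apart, and each p-value therefore reflects the spread among these libraries, which may be technical. No listed peak overlapped the PUS7 gene (0 of 2048), and peak lists cannot check the cell lines against their marker genes.

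PUS7 is a pseudouridine synthase, an enzyme that turns uridine into pseudouridine within RNA without a guide RNA. It is known for acting on tRNAs, on fragments derived from them and on sites in mRNA, and its known targets share a short uridine- and adenosine-rich motif. In stem cells, PUS7 is known for modifying small tRNA fragments that bear on protein synthesis. A peak outside annotated genes marks RNA whose reads were placed on a stretch of genome for which the gene catalogue holds no transcript. It does not by itself show which transcript the RNA came from.

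The lists were called in bins of 200 bases, and the signal is the value the authors' lists give per peak, as a mean over its bins. It is not scaled for depth, and the number of reads behind a list is unknown. The lists held 120, 85 and 39 peaks in 293T and 1605 and 199 in H9, with lowest signals of 9, 13, 22, 3 and 6 in that order. H9 list 1 thus stood apart in length and reached to lower signals. A weaker locus can therefore be listed there and be missing elsewhere.

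Peaks outside genes were a small part of every list. The 293T lists held 8, 7 and 3 of them, and the H9 lists 109 and 15. As shares of the list, these were 6.67% (95% exact binomial interval 2.92 to 12.7), 8.24% (3.38 to 16.2) and 7.69% (1.62 to 20.9) in 293T. In H9 they were 6.79% (5.61 to 8.13) and 7.54% (4.28 to 12.1). The intervals cover counting error only. The mean share was 7.53% ± 0.797 (SD, n = 3) in 293T and 7.16% ± 0.528 (SD, n = 2) in H9, a difference of -0.37 percentage points (exact two-sided permutation test, p = 0.6). With 3 against 2 libraries the smallest p of this exact permutation test is 0.1, so that it could not have passed 0.05. The number of peaks differed by 56 (exact two-sided permutation test, p = 0.1), and by 9 without H9 list 1 or 103 without H9 list 2. When only genes on the strand of the peak counted as overlapped, with a strand known for 45.7% of genes, the lists held 16, 12 and 4 such peaks in 293T and 147 and 19 in H9. The difference in share was then -3.22 points (exact two-sided permutation test, p = 0.2).

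These regions carried a larger share of the signal in every 293T list than in either H9 list. The share was 7.32%, 11.6% and 10.9% in 293T, over 1.8, 1.4 and 0.6 kb of genome. In H9 it was 4.57% and 3.10%, over 22.8 and 3 kb. The mean difference, H9 minus 293T, was -6.10 percentage points (exact two-sided permutation test, p = 0.2). A single locus on chromosome 2, described below, held 56.1%, 67.7% and 67.0% of the signal outside genes in the 293T lists. Without it the shares were 3.35%, 4.08% and 3.87% in 293T, against 4.44% and 2.65% in H9, and the difference was -0.22 points. Without the 3 loci that were in all lists, the difference was 2.56 points, with 0.933%, 1.31% and 0% in 293T and 4.31% and 2.30% in H9. Both sets were left out for their high 293T signal or their presence in every list, and 293T list 3 held no other locus outside genes, so that these values are a description with no test.

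Against other peaks of the same list, the median signal of peaks outside genes was higher in some lists and lower in others. It was 15, 37 and 126 in the 293T lists, against 4 and 11 in H9. At or within 200 bases of tRNA genes the medians were 17, 25, 31, 8 and 13 in the same order. In protein-coding genes they were 18, 16, 46, 3 and 10. The difference in log2 median signal was 0.23 against tRNA genes, with a higher median outside genes in 2 of 5 lists (exact two-sided sign-flip permutation test, p = 0.75). Against protein-coding genes it was 0.59, higher in 4 of 5 lists (p = 0.1875 by the same exact test, whose smallest p is 0.0625). Without 293T list 3, whose median rests on 3 peaks, the difference was -0.21 against tRNA genes and 0.37 against protein-coding genes.

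**Figure D1:**
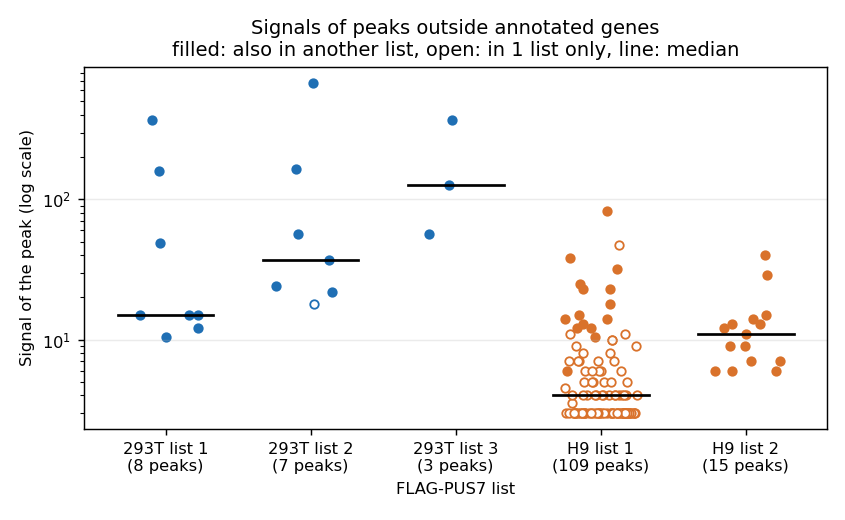
Signal of each peak outside annotated genes (log scale) in the 5 FLAG-PUS7 lists, with a line at the median, filled points for peaks also found in another list and open points for the rest. The highest peak reaches 367, 676 and 371 in the 293T lists and 83 and 40 in the H9 lists, and most of the 109 peaks of H9 list 1 sit near its lowest signal of 3.

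The 3 loci found in every list led the set in 293T. Their signals are first given without depth scaling. On that scale the median of all 32 loci of any class found in every list was also higher in 293T. It was 58.5, 82.8 and 41.4 in the 293T lists and 37.0 and 27.5 in the H9 lists. How many of the 32 separated the lines on that scale was not counted. The strongest of the 3 lay on the plus strand of chromosome 2 at 13924001 to 13924200, with the lncRNA gene LOC107985854 as its nearest gene at 14.3 kb. The 293T lists gave it signals of 367, 676 and 371, and the H9 lists 25 and 29. Every 293T value was above every H9 value, at 471.3 ± 177.3 (SD, n = 3) against 27.0 ± 2.83 (SD, n = 2). It ranked 6, 2 and 3 among all peaks of the 293T lists, but 69 and 33 in the H9 lists. As a share of all listed signal it held 4.11%, 7.86% and 7.27% in 293T and 0.138% and 0.456% in H9. Its second count, the other value per peak that is described below, was 0 in all lists.

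The next locus lay on the minus strand of chromosome X at 47802601 to 47802800, 347 bases from WASF4P, a pseudogene of a gene family of actin regulators. The 293T signals were 160, 165 and 126, against 12 and 9 for H9. The lines again did not overlap, with 150.3 ± 21.2 (SD, n = 3) against 10.5 ± 2.12 (SD, n = 2), and the 293T lists gave closely similar values. It ranked 10, 10 and 11 in the 293T lists and 169 and 116 in the H9 lists. The second count was 2 in 293T list 2 and 0 elsewhere.

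The third locus lay on the minus strand of chromosome 4 at 157768001 to 157768200, 35.2 kb from the lncRNA gene LOC105377509. The 293T lists gave 49, 57 and 57, and the H9 lists 12 and 14, or 54.3 ± 4.62 (SD, n = 3) against 13.0 ± 1.41 (SD, n = 2). Here too every 293T value was above both H9 values. It had a second count of 3 in 293T list 2, 1 in H9 list 2 and 0 in the other lists.

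**Figure D2:**
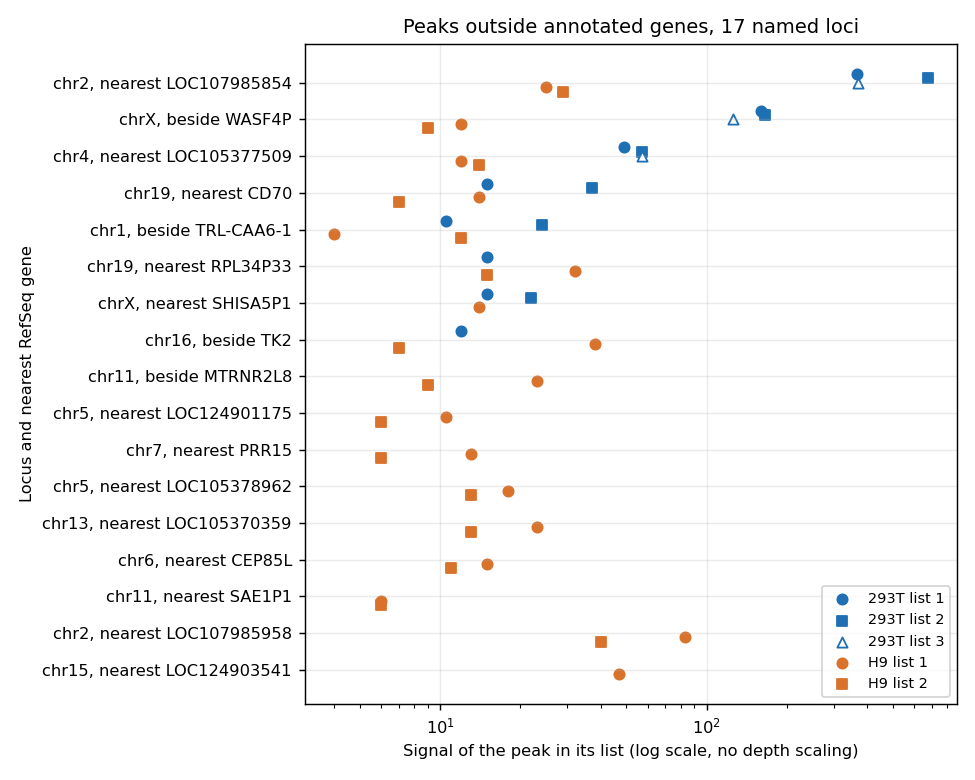
Signal in each list (log scale, not scaled for depth) at the named loci outside genes, labelled by chromosome and nearest RefSeq gene, with 293T lists in blue and H9 lists in orange; a list without a peak at the locus has no point. The chromosome 2, X and 4 loci at the top separate the lines, with 126 to 165 in 293T against 9 and 12 in H9 at the chromosome X locus, and the lower part holds loci listed in H9 alone.

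To compare the lines on a relative scale, all 32 loci of any class with a peak in every list were fitted together. Entry needed a listed peak, and the lowest listed signals were 9, 13 and 22 in 293T but 3 and 6 in H9. A locus could enter with a signal under 9 in H9 but not in 293T, so that this selection can favour loci lower in H9. The p-values below do not account for it, and its effect was not tested. The log2 signal of each locus was taken relative to the median locus of its list, which had a signal of 58.5, 82.8 and 41.4 in 293T and 37.0 and 27.5 in H9. With limma, 12 of 32 loci differed between H9 and 293T at an adjusted p under 0.05 (Benjamini-Hochberg), which is 37.5% of those tested, and 8 of them, 25% of those tested, were lower in H9. All 3 loci outside genes were lower in H9. The chromosome 2 locus, with a log2 difference in relative signal of -3.19 ± 0.40 (SE; 95% interval -4.05 to -2.34), was the lowest of the 32 (limma, adjusted p = 2.96e-05). The chromosome X locus followed as the second lowest, at -2.97 ± 0.39 (SE; 95% interval -3.80 to -2.14; limma, adjusted p = 2.96e-05). The chromosome 4 locus differed by -1.19 ± 0.43 (SE; 95% interval -2.10 to -0.27; limma, adjusted p = 0.0382).

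The median log2 difference was -2.97 over the 3 loci outside genes, -0.30 over all 32 loci and -0.17 over the 23 loci at tRNA genes, of which 4 were called. In relative signal, the 3 loci were among 17 of 32 (53.1%) whose 293T and H9 values did not overlap. With 1 library left out at a time, the chromosome 2 locus ranged from -3.51 to -2.87 and the chromosome X locus from -3.15 to -2.84, and both kept their call (limma). The chromosome 4 locus lost its call without 293T list 1 (limma, adjusted p = 0.0677), without 293T list 3 (adjusted p = 0.197) and without H9 list 1 (adjusted p = 0.248). Without H9 list 1 the number of called loci was 7. When each list was scaled by its summed signal, which moved the median of the 32 loci to -1.73, 19 loci were called and all 19 were lower in H9. On that scale the differences were -4.62, -4.39 and -2.61 at the chromosome 2, X and 4 loci.

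**Figure D3:**
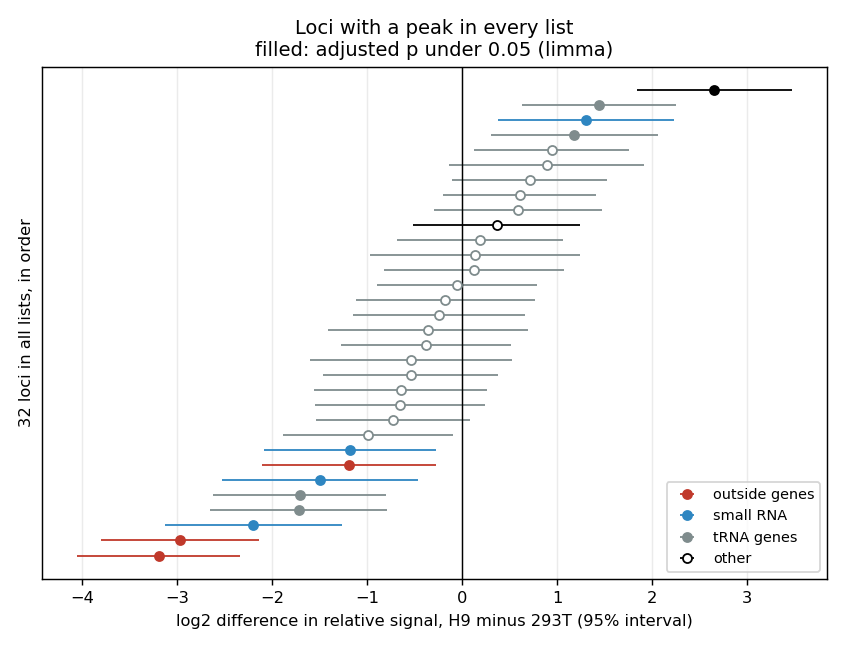
Log2 difference in relative signal, H9 minus 293T, with 95% intervals for the 32 loci that had a peak in every list, ordered by value, coloured by class and filled where the limma adjusted p was under 0.05. The loci outside genes, in red, are all on the side lower in H9, at -3.19, -2.97 and -1.19.

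A further group of loci outside genes recurred in both lines without reaching every list. On the minus strand of chromosome 19 at 6572801 to 6573000, 8.65 kb from CD70, which encodes a ligand of the tumour necrosis factor family, the signal was 15 and 37 in 293T lists 1 and 2 and 14 and 7 in the H9 lists. Its second count was 0 in the 4 lists that held it. A locus on the plus strand of chromosome 1 at 161612601 to 161613000 had 10.5 and 24 in 293T lists 1 and 2 and 4 and 12 in H9, again with second counts of 0. At both loci 293T list 2 was highest. At the chromosome 19 locus the listed 293T values were just above the H9 values, at 15 against 14 where they came closest, and at the chromosome 1 locus the lines overlapped. Neither locus was in 293T list 3. The chromosome 1 locus was the one closest to a tRNA gene, 572 bases from the leucine gene TRL-CAA6-1.

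The rule's distance of 200 bases fell in a gap between peaks. The 51 peaks without an overlapping gene that the rule set aside lay 1 to 80 bases from a tRNA gene, and no such peak lay between 80 and 572 bases. The outermost peak set aside, near TRNAA-AGC on chromosome 6, had a signal of 3 in H9 list 1, against 4 to 24 over the lists at the chromosome 1 locus. The next locus outward, on chromosome 14, was 2090 bases from TRT-TGT5-1.

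3 loci had a peak in 3 lists. On the plus strand of chromosome X at 41316401 to 41316600, nearest to the pseudogene SHISA5P1, the signal was 15 and 22 in 293T lists 1 and 2 and 14 in H9 list 1, with a second count of 0 in each. On chromosome 19 at 22694801 to 22695000, minus strand and nearest to the pseudogene RPL34P33, it was 15 in 293T list 1 and 32 and 15 in H9. On chromosome 16 at 66550401 to 66550600 it was 12 in 293T list 1 and 38 and 7 in H9. The chromosome 16 locus lay on the plus strand 110 bases from TK2, which encodes the mitochondrial thymidine kinase and is annotated on the minus strand. At the chromosome 19 and 16 loci the highest value was that of H9 list 1, and the value of H9 list 2 was at or below that of 293T.

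Another 8 of the 110 loci outside genes were listed in both H9 libraries and in no 293T list, beside 106 of 1619 over all classes. The strongest of the 8 was on the plus strand of chromosome 2 at 166743601 to 166743800, 132.4 kb from the nearest gene, LOC107985958, with 83 and 40. It ranked 23 and 24 among all peaks of the H9 lists. A locus on the minus strand of chromosome 13 at 109424201 to 109424400 had 23 and 13, and one on the minus strand of chromosome 11 at 10509201 to 10509600 had 23 and 9. The chromosome 11 locus lay 25 bases from MTRNR2L8, a nuclear copy of mitochondrial ribosomal RNA sequence, and was the locus closest to any annotated gene.

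The other 5 had signals of 6 to 18 in H9 list 1 and 6 to 13 in H9 list 2. On chromosome 5 at 52305001 to 52305200 the signal was 18 and 13, and on chromosome 6 at 118724401 to 118724600, 14.3 kb from CEP85L, it was 15 and 11. On chromosome 7 at 29587201 to 29587400, 19.9 kb from PRR15, it was 13 and 6. These lie on the minus strand. On chromosome 11 at 123003601 to 123003800, plus strand, it was 6 in both H9 lists. On chromosome 5 at 25440801 to 25441200, minus strand and 128.6 kb from any gene, it was 10.5 and 6. The lowest signals listed in 293T were 9, 13 and 22, so that the weaker of these values lay below what any 293T list held, while 83 and 40 at the chromosome 2 locus lay above all 3. Absence from 293T was not tested.

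No locus outside genes was in all 3 293T lists and in no H9 list, beside 1 of 1619 loci over all classes. Listed in 293T alone was 1 of the 110 loci outside genes, beside 9 of 1619 over all classes. This locus was on chromosome 1 at 148355601 to 148355800, plus strand, with a signal of 18 in 293T list 2. It is named here because it is the sole case outside genes. Of the 9 loci with a peak in 293T, 8 (88.9%) had one in H9, and these were 7.34% of the 109 loci with a peak in H9. Over all classes 116 loci were in both lines, out of 125 in 293T (92.8%) and 1610 in H9. Both shares outside genes were thus close to those over all classes. At tRNA genes 63 loci were in both lines, 92.6% of the 68 in 293T and 44.7% of the 141 in H9. These shares were not tested.

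Within each list except 293T list 2, recurrence outside genes was close to that of the other peaks. In 293T list 2 the difference was -13.0 percentage points, where 1 of 7 peaks outside genes was in no other list. Of peaks outside genes, 100%, 85.7% and 100% were also in another list in 293T, and 14.7% and 100% in H9. For the remaining peaks these shares were 96.4%, 98.7%, 100%, 13.8% and 97.3%. The mean difference was -1.16 percentage points (exact two-sided sign-flip permutation test over 5 lists, p = 1). It was 3.54 points without H9 list 1, and the direction was also turned without 293T list 2, at 2.26 points. Counted as loci, 16 of 110 (14.5%) outside genes were in 2 or more lists, beside 82 of 146 (56.2%) at tRNA genes, 44 of 926 (4.75%) in protein-coding genes and 225 of 1619 (13.9%) overall. These locus shares were not tested.

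**Figure D4:**
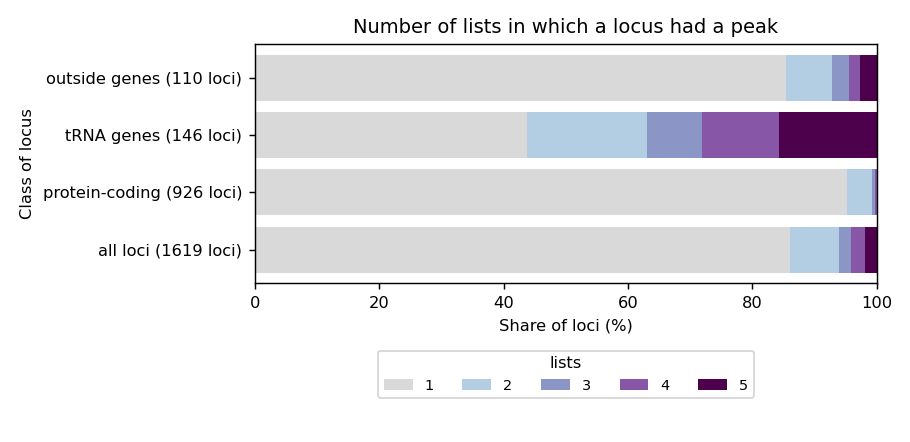
Share of merged loci (%) by the number of lists that held a peak there, for loci outside genes, at or near tRNA genes, in protein-coding genes and over all classes. Outside genes 85.5% of loci were in 1 list, beside 43.8% at tRNA genes and 95.2% in protein-coding genes.

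The loci in 1 list were almost all from H9 list 1, which alone held 93 of the 110 loci. Over all classes that list alone held a similar part, 1383 of 1619 loci. The signals of the 93 loci outside genes ran from 3 to 47 with a median of 3, and 52 of the 93 sat at the lowest signal of that list. Of the 109 peaks outside genes in that list, 49 carried the list's highest p-value of 0.0301, the weakest evidence the authors' list admits. Signals this low were not particular to regions outside genes. The median signal in that list was 4 outside genes, against 3 in both protein-coding and lncRNA genes. It was 5 in pseudogenes or other genes, 6 in genes of other small RNAs and 8 at tRNA genes. Peaks at the lowest signal or highest p-value were not counted for the other classes. The loci of H9 list 1 that H9 list 2 also held ranged from 4 to 83. The exception among the single-list loci was on the minus strand of chromosome 15 at 81782201 to 81782400, 25.4 kb from LOC124903541, with a signal of 47 and a second count of 0 in H9 list 1. It ranked 41 in that list, while the next highest locus found in H9 list 1 alone had 11.

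The lists give each peak a second count beside its signal. It is the value that remains when the last column of the lists, a natural logarithm, is turned back, taking it as the log of the count plus 1. The sources used here do not say what was counted, and without the added 1 each value above 0 would be 1 higher. Outside genes it was 0 at 7 of 8, 5 of 7 and 3 of 3 peaks in 293T, or 87.5%, 71.4% and 100%. In H9 it was 0 at 88 of 109 peaks (80.7%) and at 7 of 15 (46.7%). The lines differed by -22.6 percentage points, H9 minus 293T (exact two-sided permutation test, p = 0.3), by -39.6 points without H9 list 1 and by -5.58 points without H9 list 2. At tRNA genes the share at 0 was 95.2%, 80.8%, 91.3%, 96.4% and 81.2% in the same order of lists, and in protein-coding genes 71.4%, 85.7%, 0% (1 peak), 88.7% and 22.9%. In genes of other small RNAs it was 40%, 30%, 25%, 38.3% and 4.76%. In H9 list 2 it was 0% both in lncRNA genes and in pseudogenes or other genes, so that in that list the share outside genes was below that at tRNA genes but above these.

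Of the 15 loci outside genes found in both H9 lists, 7 had a second count of 0 in both and 8 had a second count in at least 1. The 7 included the chromosome 2 locus at 13924001, the chromosome X locus near WASF4P, and those near CD70 and TRL-CAA6-1. At the 8 others, the second count was higher in H9 list 2 than in H9 list 1 at 6 and lower at 2. Summed over the 15 loci, the second count was 29 in H9 list 1 and 66 in H9 list 2, while the signal was 328.5 and 197. At these 15 loci the H9 list with the higher signal thus had the lower second count. Higher second counts in H9 list 2 were not particular to them. The median second count over all listed peaks in protein-coding genes was 0 in H9 list 1 and 6 in H9 list 2. It was 0 and 13 in lncRNA genes, 1 and 8.5 in genes of other small RNAs, and 0 in both at tRNA genes. The median signal in protein-coding genes was higher in H9 list 2, at 10 against 3.

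At single loci the second count could come near the signal or stay far below it. On chromosome 13 at 109424201 the second count was 4 beside a signal of 23 in H9 list 1, and 18 beside 13 in H9 list 2. At the locus near MTRNR2L8 it was 3 for a signal of 23 in H9 list 1, and 17 for a signal of 9 in H9 list 2. These values in H9 list 2 were the 2 peaks outside genes at which the second count was at or above the signal. At the chromosome 2 locus at 166743601 it was 6 beside 83 and 12 beside 40, so that the signal was 13.8 and 3.33 times the second count. On chromosome 19 at 22694801 it was 5 and 9 in H9 and 4 beside a signal of 15 in 293T list 1, and near TK2 it was 5 and 6 in H9 and 0 in 293T list 1. In 293T list 3 the second count was 0 at all 3 peaks outside genes.

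**Figure D5:**
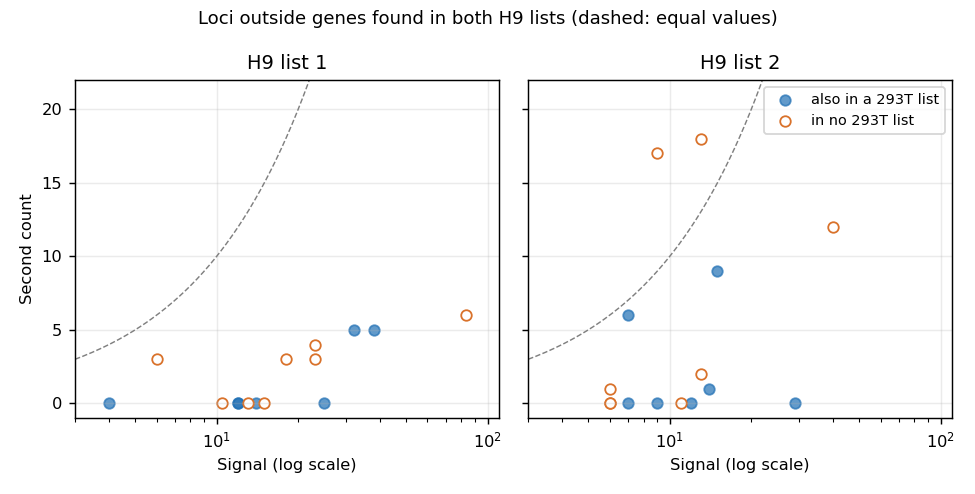
Second count against signal (log scale) at the 15 loci outside genes found in both H9 lists, with filled points for loci also in a 293T list and open points for the others; overlapping points are darker. In H9 list 2 the loci with second counts of 17 and 18 lie above the dashed line of equal values, and none does in H9 list 1.

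By position, the 110 loci were spread over 22 chromosomes and stood apart from genes by a wide range. Their nearest RefSeq gene was 25 bases to 397.1 kb away, with a median of 13.4 kb and quartiles of 3.86 and 32 kb. The median was 14.0 kb for the 16 recurrent loci and 13.2 kb for the others. The nearest gene was a lncRNA gene at 42 loci, a protein-coding gene at 34, a pseudogene at 27 and a tRNA gene at 2. From the nearest tRNA gene 105 of 110 loci were more than 100 kb away, and 3 were within 10 kb.

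Within 1000 bases of a gene lay 14 loci, and apart from those already named they were in H9 list 1 alone. They included LNCPRESS2, a lncRNA gene, at 98 bases with a signal of 4, and MTRNR2L1, another nuclear copy of mitochondrial ribosomal RNA sequence, at 415 bases with a signal of 5. A second locus lay 625 bases from MTRNR2L8 with a signal of 6. Beside the microRNA gene MIR10396A on chromosome 21, 2 loci at 336 and 736 bases had signals of 3 and 10. Loci beside the protein-coding genes NPIPB8, LUZP2 and FNBP1L, at 491, 563 and 940 bases, had signals of 7, 4 and 8. Those beside the pseudogenes RPSAP62 and TOMM20P4, at 683 and 843 bases, each had 3. These loci were chosen for their distance after their values were seen, and no test links a locus to its neighbour.

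On the plus strand lay 47 loci and on the minus strand 63. Of peaks outside genes, 50%, 57.1% and 33.3% were on the plus strand in 293T and 42.2% and 33.3% in H9. The lines differed by -9.06 percentage points (exact two-sided permutation test, p = 0.5). This was -3.90 points without 293T list 2, -4.62 without H9 list 2, -15.8 without 293T list 3 and -17.8 when only genes on the strand of the peak counted. Where the strand of the nearest gene was known, at 43 loci, 26 lay on the same strand and 17 on the other.

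Some loci lay in short runs on 1 strand with gaps of at most 10 kb, which were looked for after the values were seen. The longest run was 4 loci over 12.2 kb on the minus strand of chromosome 5, from 25431201 to 25443400 and 126.4 kb from the nearest gene, with signals of 4.5, 5, 10.5 and 3.5 in H9 list 1. The third of these is the locus also held by H9 list 2. A run of 3 loci spanned 5.6 kb on the minus strand of chromosome 13, from 55574401 to 55580000, with signals of 7, 3 and 3, all of them from H9 list 1. It was 391.7 kb from its nearest gene, LINC02335. The 4 other runs held 2 loci each, and no run included a 293T peak.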

How the data were processed

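Peak lists of 5 iCLIP libraries were used. The submitters' processing notes name Bowtie, SAMtools, bedtools and hg38 but not what each did. The peak caller was not given in the sources used here. The signal deposited by the authors is whole in peaks of 1 bin of 200 bases and a mean over bins otherwise. The deposited p-value is the authors' own per peak. The last deposited column is a natural log with 1e-05 in place of 0. Tables of tRNA rows were not used, so that values at tRNA genes are those of the peak lists alone. These lists are labelled notRNA, and whether they hold all signal at tRNA genes was not tested. Starts are 1-based, and RefSeq genes are those of GRCh38.p14 (45.7% with a strand here). Peaks sharing at least 1 base on a strand were merged into loci, with the highest signal of a locus kept in each list. Exact permutation tests were run in Python 3.11.15, and limma 3.58.1 in R 4.3.3 was fitted to log2 signal over all loci in every list, after a test on simulated data. Named loci are those in every list, in every list of 1 line alone, or among the 5 highest members of a list. Members and lists were chosen with earlier results of these data known. No genome sequence was used here, so that the PUS7 motif was not searched and no sequence is shown. Alternatives were the tRNA distance (1000 bases), strand of genes, p-values under 0.01, signals of at least 10, overlap, centring, pseudocount, pairing and leaving out each library. Leaving out the strongest locus, or the loci in every list, was added after seeing the data.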

Additional observations from a re-analysis of the deposited data

How the results depend on the processing

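Of 125 recomputed values, 108 kept their direction and their side of the threshold. For the 8 measures tested over lists, whose exact tests cannot pass 0.05, this speaks of direction alone. Direction held under every alternative run for the number of peaks, the shares with a second count of 0 and on the plus strand, and the median signal against protein-coding genes. It also held for the differences at the chromosome 2, X and 4 loci, although the chromosome 4 locus lost its call under 4 of 11 alternatives (limma). The difference in the number of peaks kept its direction but was 7.5 at signals of at least 10. The share of listed peaks outside genes, H9 minus 293T, was -3.22 points when only genes on the strand of the peak counted, 0.0206 points beyond 1000 bases from tRNA genes, 0.00773 points at signals of at least 10, and -0.80 to 0.00627 points with 1 library left out. Recurrence against other peaks was 0.48 points when only genes on the strand of the peak counted, 1.98 points at signals of at least 10, 1.68 points when a stricter overlap was asked of shared peaks, and -2.33 to 3.54 points with 1 library left out. The median log2 signal against tRNA genes was -0.21 to 0.54 with 1 library left out. Without the loci in all 5 lists, which include all those of 293T list 3, the difference in signal share was 2.56 points. Called loci were 19 of 32 on summed-signal scaling and 7 to 12 with 1 library left out (limma). The labels do not say that a replicate number is shared between the lines, and 2 pairs are too few to show a pairing. Same-numbered deviations from the line means correlated at 0.29 and 0.30 over the 32 loci. The deviations of the 2 H9 lists mirror each other, so that these are not 2 independent values. With the replicate block, 4 of 32 loci were called, among them the chromosome 2 and X loci (limma, adjusted p = 0.0149 for both) and not the chromosome 4 locus (adjusted p = 0.150). The block gave differences of 54.5 peaks, -0.29 points in share of peaks, -5.63 points in share of signal, -15.8 points in second counts of 0 and -15.8 points on the plus strand. The cause of these shifts was not tested. With 3 and 2 lists of unknown depth, signals near a list's lowest value limit what absence from a list can show.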
